A study of Mus musculus with 6 samples.

Results

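The Wnt pathway was examined in the mouse uterus through 47 genes, chosen by name for their place in the pathway: 12 Wnt ligands, 14 receptors and co-receptors, 3 secreted agonists (R-spondins), 9 secreted inhibitors, and 9 genes that are targets, feedback regulators or nuclear effectors of the pathway. They were chosen with earlier results of these data known, so their shares beside those of all tested genes are descriptions. All 47 were among the 20637 genes of the deposited tables. Poly(A) RNA of the whole uterus had been sequenced from female mice on postnatal day 21. There were 3 libraries of genotype Nat10 f/f, here called floxed controls, and 3 of genotype Nat10 d/d, here called Nat10-deleted. Nat10 encodes an RNA cytidine acetyltransferase. Neither a Cre driver nor the cells that carry the deletion are named in the labels, which also give no strain and do not say whether each library is a separate animal, so the p-values measure only the spread between these libraries. The comparison asked how expression differs in the uterus once Nat10 is deleted.

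Wnt proteins are secreted lipid-modified ligands that bind Frizzled receptors. With the co-receptors Lrp5 and Lrp6 they stabilise beta-catenin, the product of Ctnnb1, which then acts with factors of the TCF/LEF family on target genes such as Axin2. Other Wnt proteins, such as Wnt5a, act mainly without beta-catenin, through receptors such as Ror2. In the mouse uterus, Wnt7a is known as a ligand of the luminal epithelium and Wnt5a as a ligand of the stroma, and both are needed for the growth of uterine glands in the weeks after birth.

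Nat10 itself had values of 13.2, 16.4 and 9.95 FPKM (fragments scaled by transcript length and library size) in the controls and 5.57, 5.23 and 5.53 FPKM in Nat10-deleted replicates 1, 2 and 3. The deleted libraries were all below the controls (log2 change -1.11, SE 0.17; limma adjusted p 0.669). Summed values per library ranged from 500764 to 549263 FPKM, and sequencing depth, estimated from the lowest values, differed by at most 1.26 times. Nat10-deleted replicate 2 stood apart from the other libraries in markers of dividing cells, with 160.1 FPKM summed over 8 such genes, against 14.9 and 8.09 in Nat10-deleted replicates 1 and 3 and 17.4 to 70.4 in controls. Smooth muscle markers (8 of 8 tested, none separating the groups) summed to between 3820 and 4868 FPKM over the 6 libraries. Blood markers summed to 5581, 2629 and 851 FPKM in control replicates 1, 2 and 3 and to 709 to 1723 FPKM in deleted libraries. Of 6 ovarian markers, Zp3 and Cyp19a1 were listed at 0 in all libraries and Amh stayed at or below 0.683 FPKM. Gdf9 was at 0.395 to 1.58 FPKM and Inha at 5.0005 to 9.24 FPKM over all libraries, and Foxl2 was lower without overlap in deleted uteri (26.7 to 28.9 FPKM in controls, 18.1 to 24.04 FPKM in deleted uteri; limma adjusted p 0.922). The part of ovarian RNA in the members' values was not tested, nor was it tested which cells gave the Foxl2 RNA. Control replicate 1 had the highest sum of fat cell markers, 73.4 FPKM, against 2.00 and 5.52 in the other controls and 2.11 to 15.5 in deleted libraries.

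Of the 47 genes, 42 had a value of at least 1 FPKM in at least 3 libraries and were tested, and Wnt10a, Fzd9, Rspo2, Dkk1 and Sfrp5 were not. No member passed an adjusted p of 0.05 between the groups (limma on log2(FPKM + 1), Benjamini-Hochberg over 12640 genes), and none of all tested genes did (0%). The smallest adjusted p among the members was 0.778, for Wnt2b. At an unadjusted p under 0.05 there were 8 members of 42, against 4.98% of all tested genes. This count was 4 without deleted replicate 1 (2.78% of all tested genes), 5 without control replicate 3 (2.79%), 12 without deleted replicate 2 (13.7%) and 9 without deleted replicate 3 (11.1%), so the share over all genes moved too. Among the 8, deleted uteri were higher in Wnt7a, Fzd5 and Fzd10, against 2.68% of all tested genes, and lower in Wnt2b, Wnt5a, Wnt16, Rspo1 and Sfrp4, against 2.3%. When libraries were weighted by their estimated quality, 3730 of the 12640 genes and 11 of the 42 members had an unadjusted p under 0.05 in limma. At the adjusted threshold limma then called 316 of the 12640 genes, among them the members Wnt2b, Wnt16 and Wnt7a (adjusted p 0.0386, 0.0386 and 0.0474). The weights were 3.74, 0.224 and 0.451 for deleted replicates 1, 2 and 3 and at most 1.92 for controls, so these calls rest mainly on deleted replicate 1, the lowest library for Wnt2b and Wnt16. In 3 members, Wnt7a, Fzd5 and Fzd10, every Nat10-deleted library lay above every control, and 6.12% of all tested genes did so. In 5 members, Wnt2b, Wnt5a, Wnt16, Rspo1 and Dkk2, every deleted library lay below every control, and 4.6% of all tested genes did so (10.7% in either direction). The median log2 change over the 42 members was -0.03, against 0.03 over all tested genes, and it was 0.063 without deleted replicate 2 and -0.129 without deleted replicate 3. The plot of changes by role shows these 8 genes as filled symbols. Because the uterus was taken whole, fewer cells of a type and less RNA per cell cannot be told apart in any of these values.

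**Figure D1:**
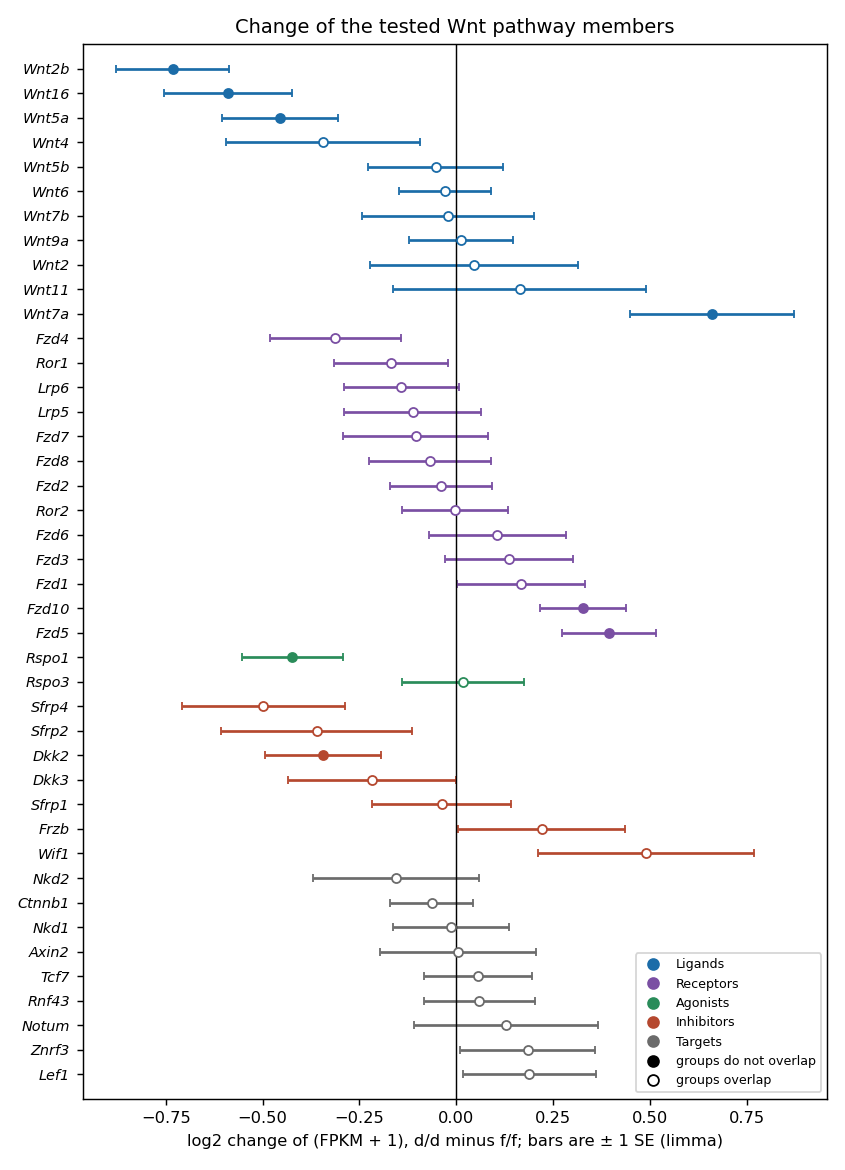
Log2 change of (FPKM + 1) in Nat10-deleted minus floxed control uteri for the 42 tested members, grouped by role; points are fitted changes, bars ± 1 SE from limma, and filled points are members whose groups do not overlap. Ligands span -0.73 (Wnt2b) to 0.66 (Wnt7a), while the 9 target genes lie between -0.16 and 0.19 and all have open symbols.

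Among the ligands, Wnt5a and Wnt16 were the most abundant and both were lower in Nat10-deleted uteri, whereas Wnt7a was higher. Of the 11 tested ligands, 7 had a lower and 4 a higher mean log2(FPKM + 1) in deleted uteri, 3 lay below the controls without overlap (4.6% of all tested genes) and 1 above (6.12%), and the median log2 change was -0.03. None was called by limma with libraries weighted equally, and the 3 members called with quality weights, given above, are all ligands. When a library was left out, the ligand median ran from -0.185 (without deleted replicate 3) to 0.009 (without control replicate 2). Wnt5a, which acts mainly without beta-catenin, had values of 76.2, 56.1 and 53.2 FPKM in control replicates 1, 2 and 3 and of 42.9, 44.5 and 45.6 FPKM in deleted replicates 1, 2 and 3. The deleted values were close together and all below the lowest control, and control replicate 1 was well above the other controls. Control libraries averaged 61.9 ± 12.5 FPKM and deleted ones 44.3 ± 1.34 FPKM (SD, n = 3 each), which is 71.6% of the control level and a log2 change of -0.45 (SE 0.15; limma adjusted p 0.922). Without control replicate 1, the library with the most fat and blood marker RNA, the log2 change was -0.30. The part of that RNA in the value of Wnt5a was not tested.

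Wnt16, a further secreted ligand, was at 38.7, 29.4 and 36.7 FPKM in controls and at 18.9, 22.6 and 27.4 FPKM in deleted replicates 1, 2 and 3. All deleted libraries were below the lowest control, with deleted replicate 3 nearest to it. Deleted uteri averaged 65.8% of the control level, a log2 change of -0.59 with an SE of 0.17 (limma adjusted p 0.922). Wnt2b, a ligand that acts through beta-catenin, had the largest change of any tested member on the log2(FPKM + 1) scale. Its values were 5.69, 5.89 and 6.08 FPKM in controls and 2.59, 3.10 and 3.83 FPKM in deleted uteri. The controls lay within a narrow range and the deleted libraries were far below it. Controls averaged 5.89 ± 0.193 FPKM and deleted uteri 3.17 ± 0.625 FPKM (SD, n = 3 each), 53.9% of the control level. This is a log2 change of -0.73 with an SE of 0.14 (limma adjusted p 0.778).

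Wnt7a was the only tested ligand with every deleted library above the controls. It stood at 9.65, 13.4 and 13.8 FPKM in controls and at 21.1, 24.7 and 14.8 FPKM in deleted replicates 1, 2 and 3. Replicates 1 and 2 were clearly higher, and replicate 3 lay just above the highest control. Deleted libraries averaged 20.2 ± 5.03 FPKM and controls 12.3 ± 2.31 FPKM (SD, n = 3 each), so that the deleted level was 164% of control, a log2 change of 0.66 (SE 0.21; limma adjusted p 0.922). Wnt11, a ligand involved in cell movement, was evenly expressed in controls, at 15.7, 14.6 and 14.4 FPKM, and scattered in deleted uteri, at 17.8, 9.42 and 27.9 FPKM. Deleted replicate 2 was below all controls and replicate 3 far above them. Its log2 change was 0.16, 0.55 without deleted replicate 2 and -0.19 without deleted replicate 3.

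**Figure D2:**
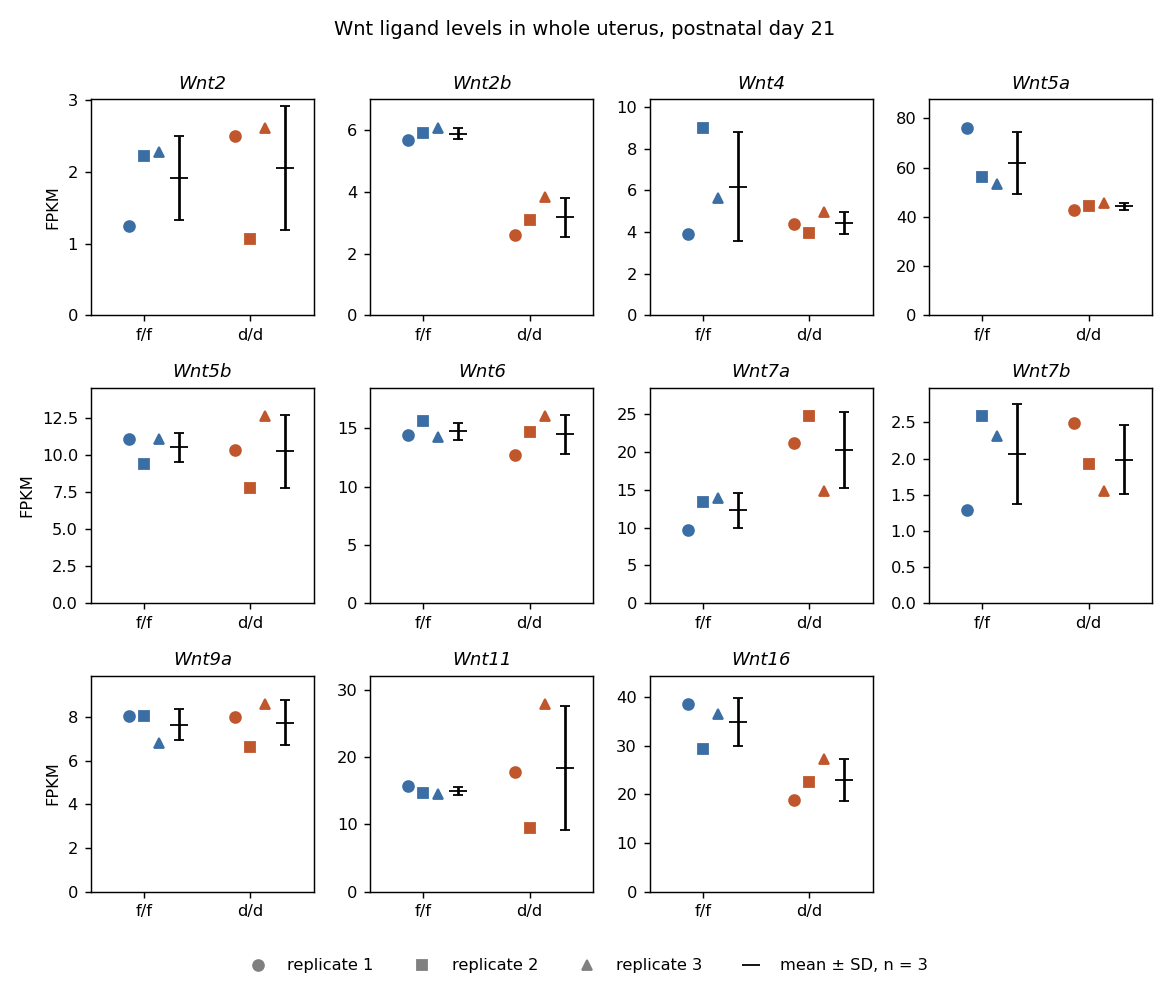
FPKM of the 11 tested Wnt ligands in each library, with floxed controls (f/f) in blue and Nat10-deleted uteri (d/d) in orange; symbols mark replicate numbers, black bars the mean ± SD of 3 libraries, and each axis starts at 0. Wnt2b, Wnt5a and Wnt16 are lower and Wnt7a is higher in d/d without overlap, and Wnt11 runs from 9.42 to 27.9 FPKM within d/d.

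The other tested ligands overlapped between groups. Wnt4, which is needed for formation of the female reproductive tract, ran from 3.89 to 9.002 FPKM in controls and from 3.93 to 4.96 FPKM in deleted uteri. Wnt6 stood between 12.8 and 16.1 FPKM over all 6 libraries, Wnt5b between 7.75 and 12.6 FPKM, and Wnt9a between 6.61 and 8.61 FPKM. Wnt2 and Wnt7b did not exceed 2.62 FPKM in any library. Wnt10a was not tested and reached at most 0.133 FPKM.

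Relative amounts within a library do not depend on how libraries were scaled against each other. The 12 ligands summed to 186, 166 and 167 FPKM in controls and to 144, 140.4 and 166 FPKM in deleted replicates 1, 2 and 3. The share of Wnt5a in this sum was 35.6 ± 4.78% for controls and 29.6 ± 2.13% for deleted libraries (SD, n = 3 each). Wnt16 made up 20.1 ± 2.25% and 15.2 ± 1.84%, and Wnt7a 7.19 ± 1.74% and 13.7 ± 4.43%. The ratio of Wnt7a to Wnt5a was 0.127, 0.239 and 0.26 in controls and 0.492, 0.556 and 0.325 in deleted replicates 1, 2 and 3, which separates the groups because both genes do. Wnt5a had the highest FPKM of the ligands in each of the 6 libraries.

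**Figure D3:**
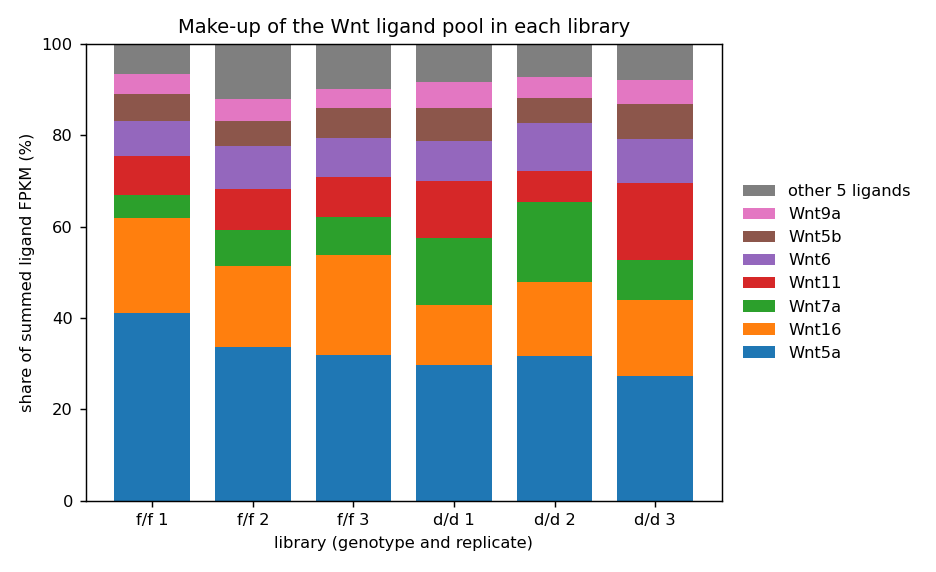
Share of each ligand in the summed FPKM of the 12 Wnt ligands, in percent, for each of the 6 libraries (f/f, floxed control; d/d, Nat10-deleted). The Wnt7a segment is 5.19% to 8.3% in f/f and 8.91% to 17.6% in d/d, and the Wnt16 segment is 17.6% to 22% in f/f and 13.1% to 16.5% in d/d.

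The sequence upstream of the start of transcription is shown for 5 of the 8 members that separated the groups, on which the comparison turns, and for Wnt11, whose groups overlap. The windows are the 250 bases before the RefSeq start on the gene's own strand (GRCm38.p6, the same assembly as mm10), and capitals mark matches on either strand to CTTTGAT (the TCF/LEF core), GGGCGG (a GC box) or TATAAA. Windows lying mostly inside a gene of the GENCODE M21 annotation (Wnt2b and Fzd10) are not printed, and no RefSeq window was matched for Wnt5a. The lower members shown are Wnt16 (chr6:22287977-22288226, plus strand), Rspo1 (chr4:124986180-124986429, plus strand) and Dkk2 (chr3:132085042-132085291, plus strand), and the higher ones shown are Wnt7a (chr6:91411354-91411603, minus strand) and Fzd5 (chr1:64737751-64738000, minus strand). Wnt11 (chr7:98834862-98835111, plus strand) is given because its window holds a match to the TCF/LEF core.
Wnt16: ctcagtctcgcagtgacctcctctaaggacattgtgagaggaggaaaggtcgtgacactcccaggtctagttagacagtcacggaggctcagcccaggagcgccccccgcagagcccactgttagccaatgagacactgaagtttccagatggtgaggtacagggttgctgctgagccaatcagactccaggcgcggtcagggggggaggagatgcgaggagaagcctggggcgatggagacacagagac
Rspo1: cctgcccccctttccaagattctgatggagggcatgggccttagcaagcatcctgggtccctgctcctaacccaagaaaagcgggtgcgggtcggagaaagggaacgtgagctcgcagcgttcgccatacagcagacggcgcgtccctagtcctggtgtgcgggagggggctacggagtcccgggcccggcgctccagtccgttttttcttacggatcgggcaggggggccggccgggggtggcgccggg
Dkk2: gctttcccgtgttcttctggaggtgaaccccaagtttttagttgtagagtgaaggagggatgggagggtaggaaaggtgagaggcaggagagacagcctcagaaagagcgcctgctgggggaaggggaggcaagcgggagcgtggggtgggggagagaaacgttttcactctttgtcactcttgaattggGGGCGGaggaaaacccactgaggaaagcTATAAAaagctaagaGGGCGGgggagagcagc
Wnt7a: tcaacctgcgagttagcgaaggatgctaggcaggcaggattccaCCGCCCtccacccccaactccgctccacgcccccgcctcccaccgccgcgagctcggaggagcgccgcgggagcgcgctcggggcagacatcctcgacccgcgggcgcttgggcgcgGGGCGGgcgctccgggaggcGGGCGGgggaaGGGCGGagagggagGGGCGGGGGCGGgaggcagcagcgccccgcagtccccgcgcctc
Fzd5: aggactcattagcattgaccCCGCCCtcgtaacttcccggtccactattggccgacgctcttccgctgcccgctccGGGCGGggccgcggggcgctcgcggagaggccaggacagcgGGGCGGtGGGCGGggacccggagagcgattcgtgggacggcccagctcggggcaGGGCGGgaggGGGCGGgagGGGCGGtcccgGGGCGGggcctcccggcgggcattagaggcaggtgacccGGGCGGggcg
Wnt11: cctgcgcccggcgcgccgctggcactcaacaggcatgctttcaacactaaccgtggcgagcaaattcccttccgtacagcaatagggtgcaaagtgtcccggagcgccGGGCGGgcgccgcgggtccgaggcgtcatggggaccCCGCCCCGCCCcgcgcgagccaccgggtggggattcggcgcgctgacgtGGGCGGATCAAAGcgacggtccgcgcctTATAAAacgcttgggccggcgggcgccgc
RefSeq windows were found for 31 of the 47 members, 40 windows in all. The TCF/LEF core was present in 2 of the 40 windows, 1 of Wnt11 and 1 of Wnt5b, which is 5%, against 3.21% of 32851 windows of all genes. The printed windows of Wnt7a and Fzd5 held 6 and 9 GC box matches and no TATAAA, Dkk2 held 2 GC box matches and 1 TATAAA, and Wnt16 and Rspo1 held neither motif. A GC box was present in 70% of member windows and 32.74% of all windows, which differ in base composition (median G + C content 64.8% and 52.4%). Matches to different motifs shared no base in the printed windows, while 2 of the GC box matches of Wnt11 shared 1 base.

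Receptors were on the whole near their control levels, with Fzd5 and Fzd10 as the members that separated the groups. Of 13 tested receptors and co-receptors, 5 had a higher and 8 a lower mean log2(FPKM + 1) in deleted uteri, 2 were higher without overlap (15.4%, against 6.12% of all tested genes) and none was lower without overlap (4.6%). The median log2 change was -0.04, 0.07 without deleted replicate 2 and -0.139 without deleted replicate 3. Fzd5, a Frizzled receptor that couples to beta-catenin signalling, was at 3.64, 3.23 and 3.61 FPKM in controls and at 5.15, 4.56 and 4.99 FPKM in deleted uteri. The deleted libraries formed a tight set above the controls, at 140.3% of the control mean (log2 change 0.39, SE 0.12; limma adjusted p 0.922). Fzd10, another Frizzled receptor, was at 11.0, 11.5 and 9.70 FPKM in controls and at 13.9, 12.8 and 14.4 FPKM in deleted uteri. Its deleted values were all above the controls by a smaller margin (128% of control; log2 change 0.33, SE 0.11; limma adjusted p 0.922).

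The 3 most abundant receptors were Fzd2, Fzd1 and Fzd6, and their groups overlapped. Fzd2 was at 42.0, 39.0 and 43.4 FPKM in controls and at 40.8, 34.5 and 46.4 FPKM in deleted replicates 1, 2 and 3, with deleted replicate 2 the lowest and replicate 3 the highest of all 6 libraries. Fzd1 was at 34.1, 37.4 and 42.4 FPKM in controls and at 39.3, 36.5 and 53.6 FPKM in deleted uteri, where replicate 3 alone exceeded the controls. Fzd6 was at 27.5, 24.3 and 29.3 FPKM in controls and at 31.9, 22.1 and 34.9 FPKM in deleted uteri, again lowest in replicate 2 and highest in replicate 3. The co-receptors Lrp5 and Lrp6, which pass the ligand signal to beta-catenin, ranged from 12.7 to 21.1 FPKM and from 19.5 to 28.7 FPKM over all libraries. Ror2, a receptor of Wnt5a, averaged 10.7 ± 0.854 FPKM in the control group and 10.7 ± 1.58 FPKM in the deleted group (SD, n = 3 each), and Ror1 ranged from 4.403 to 6.47 FPKM. Fzd7 ranged from 15.3 to 26.0 FPKM, Fzd4 from 5.19 to 9.48, Fzd8 from 3.61 to 5.61 and Fzd3 from 3.20 to 5.02 FPKM over all libraries. Fzd9 was not tested and stayed at or below 0.519 FPKM.

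R-spondins strengthen Wnt signals by keeping Frizzled receptors on the cell surface. Neither tested R-spondin was called, and the groups overlapped for Rspo3 but not for Rspo1. The median log2 change of the 2 was -0.20, and it ran from -0.266 (without deleted replicate 3) to -0.084 (without deleted replicate 2) when a library was left out. Rspo1 stood at 19.0, 20.6 and 24.6 FPKM in controls and at 16.3, 14.1 and 16.7 FPKM in deleted uteri. Each deleted library was below the lowest control (73.2% of the control mean; log2 change -0.42, SE 0.13; limma adjusted p 0.922). Rspo3, the most abundant R-spondin, was at 77.7, 72.4 and 80.6 FPKM in controls and at 87.6, 61.3 and 87.4 FPKM in deleted replicates 1, 2 and 3. Replicates 1 and 3 were above all controls and replicate 2 below all of them, so that the log2 change of 0.02 (SE 0.16) was 0.19 without replicate 2. Rspo2 was not tested, with values of 0.145, 0.0248 and 0.0923 FPKM in controls and of 0.2, 0 and 0.173 FPKM in deleted uteri.

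Secreted inhibitors bind Wnt ligands (the Sfrp family, Frzb and Wif1) or the co-receptors Lrp5 and Lrp6 (Dkk1 and Dkk2). Of 7 tested inhibitors, 5 had a lower and 2 a higher mean log2(FPKM + 1) in deleted uteri, and 1, Dkk2, was lower without overlap (4.6% of all tested genes). The median log2 change was -0.22, and when a library was left out it ran from -0.317 (without deleted replicate 3) to -0.005 (without deleted replicate 2). Dkk2 was at 18.2, 12.2 and 13.8 FPKM in controls and at 11.4, 11.3 and 11.0 FPKM in deleted uteri. The deleted libraries were nearly identical and lay just below the lowest control (76.3% of the control mean; log2 change -0.34, SE 0.15; limma adjusted p 0.922). Without control replicate 1, whose value was the highest and whose fat and blood marker RNA was given above, Dkk2 differed by -0.19.

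On the log2(FPKM + 1) scale Sfrp4 (-0.50) and Wif1 (0.49) had the largest changes among the inhibitors, and their groups overlapped. Sfrp4 values were 8.99, 11.1 and 12.4 FPKM in controls and 7.06, 10.03 and 5.48 FPKM in deleted replicates 1, 2 and 3. Deleted replicates 1 and 3 were below all controls and replicate 2 was within their range (SE 0.21; limma adjusted p 0.922), and without deleted replicate 3 the log2 change was -0.32. Sfrp2, the most abundant inhibitor, was at 83.4, 88.9 and 91.4 FPKM in controls and at 76.9, 44.5 and 92.5 FPKM in deleted replicates 1, 2 and 3. The low value of deleted replicate 2 set most of the mean difference, since the log2 change was -0.36 with it and -0.06 without it. Dkk3, a Dkk relative not known as a strong Wnt inhibitor, was at 44.1, 45.8 and 49.9 FPKM in controls and at 38.4, 29.4 and 56.0 FPKM in deleted uteri, below the controls in replicates 1 and 2 and above them in replicate 3. Its log2 change was -0.22, -0.46 without deleted replicate 3 and -0.01 without deleted replicate 2. Sfrp1 ranged from 8.40 to 13.4 FPKM and Frzb from 2.52 to 4.89 FPKM over all libraries. Wif1 ran from 0.213 to 1.18 FPKM in controls and from 0.725 to 1.36 FPKM in deleted uteri, and passed the filter through 1 control and 2 deleted libraries. Control replicate 1 was at 1.18 FPKM and the other controls at 0.213 and 0.297, and without it Wif1 was higher in every deleted library. With all libraries its mean FPKM in deleted uteri was 202% of control, at a level where log2(FPKM + 1) understates changes (SE 0.28; limma adjusted p 0.922). Dkk1 was listed at 0 in 5 libraries and at 0.0284 FPKM in the other, and Sfrp5 stayed at or below 0.656 FPKM, and neither was tested.

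**Figure D4:**
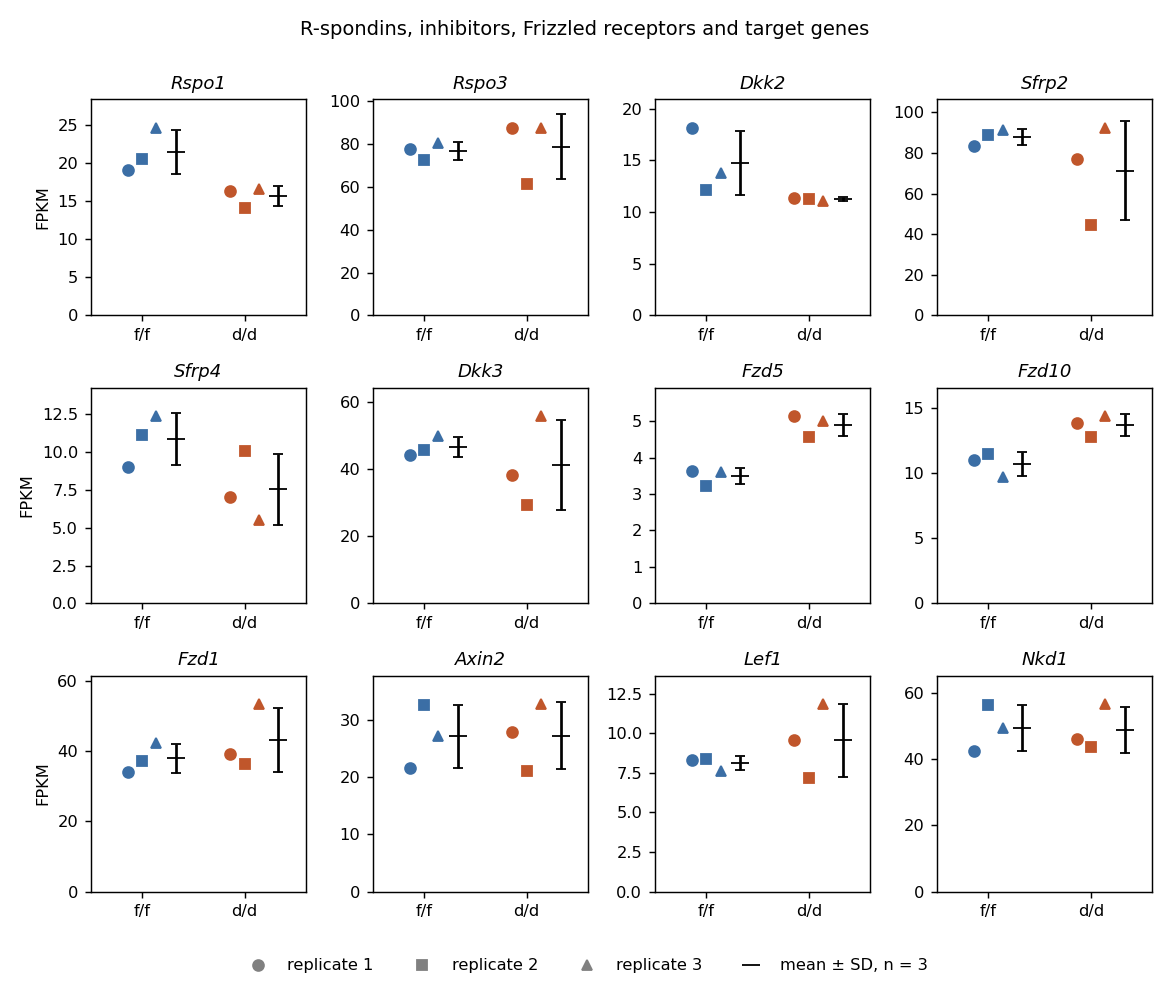
FPKM of R-spondins, secreted inhibitors, Frizzled receptors and target genes in each library (f/f in blue, d/d in orange; symbols mark replicates, bars the mean ± SD of 3 libraries, axes start at 0). Rspo1 and Dkk2 are lower and Fzd5 and Fzd10 higher in d/d without overlap, and d/d replicate 2 is the lowest d/d library for Rspo3, Sfrp2, Dkk3, Fzd1, Axin2, Lef1 and Nkd1.

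The members grouped as targets, feedback regulators or nuclear effectors, among them Ctnnb1 itself, did not separate the groups. Lgr5, a pathway gene outside the members that did separate them, is given below. None of the 9 tested target and effector genes lay wholly above or below the controls, and 10.7% of all tested genes did so. None had an unadjusted p under 0.05 in limma, against 4.98% of all tested genes. A list of 9 genes is too short to tell these counts from those shares. The median log2 change was 0.06. When a library was left out, this median ran from -0.073 (without deleted replicate 3) to 0.115 (without control replicate 2). Axin2, a direct target and feedback inhibitor, was at 21.5, 32.6 and 27.2 FPKM in controls and at 27.9, 21.03 and 32.8 FPKM in deleted replicates 1, 2 and 3. The ranges of the groups were nearly the same, with means of 27.1 ± 5.52 and 27.2 ± 5.91 FPKM (SD, n = 3 each; log2 change 0.00, SE 0.20). Nkd1, a target that encodes an inhibitor of Dishevelled, was at 42.4, 56.3 and 49.3 FPKM in controls and at 46.0, 43.7 and 56.6 FPKM in deleted uteri (log2 change -0.01, SE 0.15). Its deleted values spanned nearly the same range as the controls.

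Lef1, a TCF/LEF factor and itself a target, had the largest change of these genes. It was at 8.31, 8.40 and 7.61 FPKM in controls and at 9.57, 7.198 and 11.9 FPKM in deleted replicates 1, 2 and 3. Deleted replicates 1 and 3 were above all controls and replicate 2 was below them (log2 change 0.19, SE 0.17; limma adjusted p 0.943), and the change was 0.36 without replicate 2 and 0.03 without replicate 3. Ctnnb1, which encodes beta-catenin, was at 318, 329 and 313 FPKM in controls and at 285, 319.7 and 316 FPKM in deleted uteri, with replicate 1 alone below the controls (log2 change -0.06, SE 0.11). The receptor ubiquitin ligases Znrf3 and Rnf43, which remove Frizzled receptors from the cell surface, ranged from 7.15 to 11.9 FPKM and from 3.89 to 5.29 FPKM over all libraries. Notum, a secreted enzyme that removes the lipid from Wnt proteins, ranged from 3.72 to 7.82 FPKM, Tcf7 from 8.65 to 11.8 FPKM and Nkd2 from 14.4 to 26.4 FPKM.

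The deleted libraries differed more from each other than the controls did, and they did so in a recurrent order. Among the 42 tested members, deleted replicate 2 was the lowest of the 6 libraries for 18 (42.9%) and deleted replicate 3 the highest for 23 (54.8%). Over all tested genes these shares were 25.7% and 22.1%. Deleted replicate 3 was the highest for 9 of 13 receptors and 6 of 9 target genes. Relative to the control mean, the median log2 deviation of the members was -0.02 for deleted replicate 1, -0.20 for replicate 2 and 0.17 for replicate 3, and the controls had medians of -0.01 to 0.03. For each member the SD of log2(FPKM + 1) over the deleted libraries was divided by that over the controls, and the median ratio was 1.83. Over all tested genes it was 1.73, and without deleted replicate 2 it was 1.1 for the members and 1.05 for all tested genes. Deleted replicate 2 was also the library with the highest proliferation markers, as given above, and the part of that difference in the members' values was not tested.

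**Figure D5:**
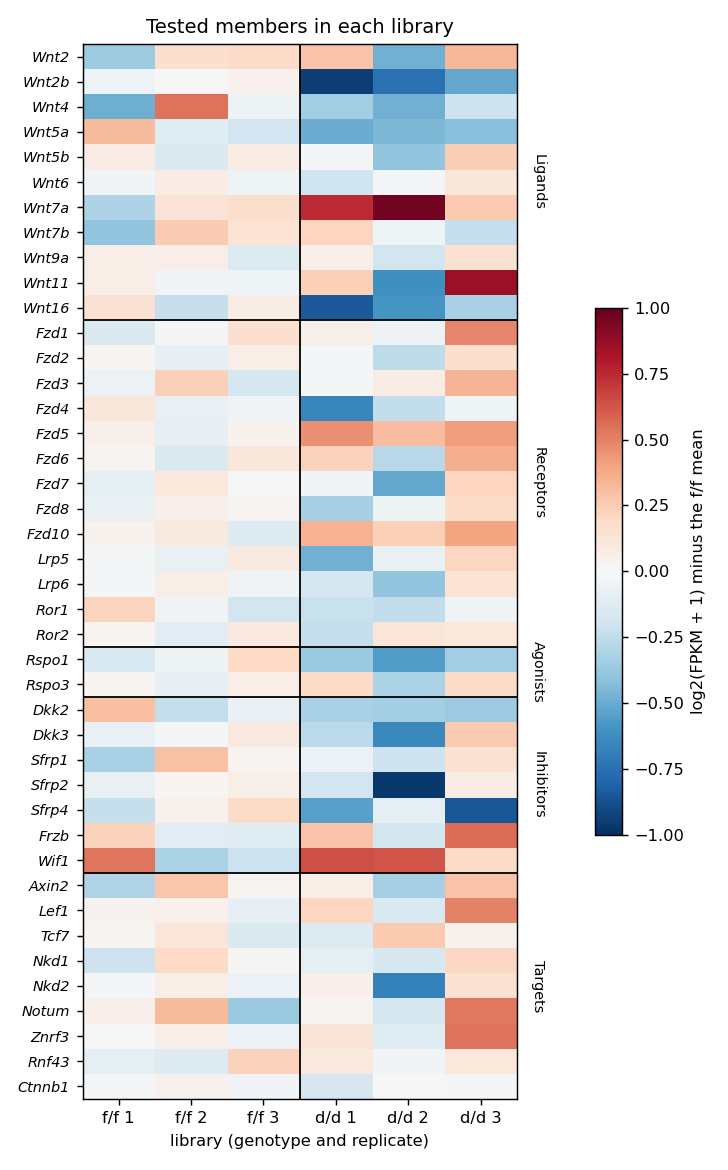
Deviation of log2(FPKM + 1) from the floxed control mean for the 42 tested members (rows, by role) in each of the 6 libraries (columns); red is above and blue below the control mean, on a scale from -1 to 1. The columns of d/d replicate 2 and d/d replicate 3 differ in most rows, with median deviations of -0.20 and 0.17.

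Leaving out a library changed how many members separated the groups; the 8 named above cannot come to overlap by such a step, so it bears on the others. Without deleted replicate 2, 10 members lay above the controls (23.8%, against 17.4% of all tested genes) and 6 below (14.3%, against 14.4%). The higher ones were then Wnt2, Wnt7a, Wnt11, Fzd5, Fzd6, Fzd10, Rspo3, Frzb, Lef1 and Znrf3. Without deleted replicate 3, 4 members lay above (9.52%, against 15.6%) and 10 below (23.8%, against 14.6%), the latter including Fzd4, Lrp6, Ror1, Dkk3 and Sfrp2.

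No marker of the tissue layers was called, and the counts without overlap below stand against 10.7% of all tested genes. All 8 epithelial markers were detected, 6 had a higher mean log2(FPKM + 1) in deleted uteri, 2 (Epcam and Cldn7) lay above the controls without overlap, and their summed level was 858 to 946 FPKM in controls and 838 to 1133 FPKM in deleted uteri. All 10 stromal markers had a lower mean log2(FPKM + 1) in deleted uteri, 1 (Mfap5) without overlap, and their summed level was 4395 to 5061 FPKM in controls and 3491 to 5121 FPKM in deleted uteri. Deleted replicate 2 was above every control for Col1a1 (984 FPKM, against 677 to 765), Col1a2, Col3a1, Lum and Vim. It was below every control for Pdgfra (39.5 FPKM, against 65.1 to 91.7), Dcn, Hoxa10, Hoxa11 and Mfap5. The stromal markers thus did not move together in that library, which limits their mean as a reference below. No epithelial or stromal marker was at 0 in all libraries. All 7 endothelial markers had a lower mean log2(FPKM + 1) in deleted uteri, 3 (Kdr, Tek and Flt1) without overlap, with sums of 257 to 287 FPKM in controls and 221 to 245 FPKM in deleted uteri. The DNA damage response genes Cdkn1a, Mdm2 and Ccng1 were higher in every deleted library than in any control, and Cdkn1a was at 33.9, 116 and 43.4 FPKM in deleted replicates 1, 2 and 3 against 3.68 to 7.23 FPKM in controls (limma adjusted p 0.669). Mesothelial markers summed to 60.7 to 77.6 FPKM in controls and 61.8 to 73.2 FPKM in deleted uteri, with 2 of 5 lower without overlap, and no leukocyte or oviduct marker tested separated the groups. Set against the mean log2 level of the 8 epithelial markers in the same library, Wnt7a was higher in deleted uteri by 0.49, but replicate 3, at -0.01, lay within the controls (-0.19 to 0.10). Relative to the same mean, Fzd5 and Fzd10 overlapped between groups (differences of 0.22 and 0.15), whereas Wnt2b (-0.90), Wnt16 (-0.76), Wnt5a (-0.63), Rspo1 (-0.59) and Dkk2 (-0.52) were lower without overlap. Set against the mean of the 10 stromal markers, Wnt2b was still lower in every deleted library than in any control (difference -0.45), but only just, with deleted replicate 3 at -0.126 and control replicate 1 at -0.119. Against the same mean, Wnt5a (-0.17), Wnt16 (-0.31), Rspo1 (-0.14) and Dkk2 (-0.06) overlapped between groups, and Wnt7a (0.94), Fzd5 (0.68) and Fzd10 (0.61) were higher without overlap. Foxa2, a factor of the glandular epithelium, was at 2.72, 2.18 and 2.06 FPKM in controls and at 1.14, 1.25 and 1.75 FPKM in deleted uteri, lower without overlap (limma adjusted p 0.922). Cxcl15, the only other glandular marker tested, overlapped between groups (log2 change -0.17; limma adjusted p 0.970). The 5 glandular markers summed to 3.54 to 7.39 FPKM in controls and 3.24 to 3.85 FPKM in deleted uteri, and Prss28, Prss29 and Spink1 were above 0 in control replicate 3 alone.

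Among 77 further genes of the pathway, 59 were tested, 22 with a higher and 37 with a lower mean log2(FPKM + 1) in deleted uteri, and none was called (limma; smallest adjusted p 0.922, with 3 at an unadjusted p under 0.05). In 3 of the 59 every deleted library lay above the controls and in 4 below, together 11.9%, close to the 10.7% of all tested genes, so the genes named next are a description and no result about the pathway. The median log2 change was -0.04. Lgr5, an R-spondin receptor known from epithelial stem cells, was at 8.16, 9.31 and 7.74 FPKM in controls and at 12.9, 10.7 and 12.5 FPKM in deleted uteri. All deleted libraries were above the controls (log2 change 0.47, SE 0.12; limma adjusted p 0.922), while the related receptor Lgr4 overlapped, with means of 10.75 ± 0.261 and 12.01 ± 2.43 FPKM (SD, n = 3 each). The other genes that were higher without overlap were Dvl1, which encodes a Dishevelled protein, and the nuclear cofactor gene Pygo2, with log2 changes of 0.06 and 0.15. Those that were lower without overlap were Dact2 (-0.37), Daam2 (-0.32), Apc2 (-0.30) and Amer1 (-0.14), which encode cytoplasmic regulators of Wnt signalling. Wls and Porcn, which are needed to secrete and lipid-modify Wnt proteins, overlapped between groups, with log2 changes of -0.10 and -0.19. None of the 8 further ligands in the list passed the filter, and 2 of them, Wnt1 and Wnt8a, were listed at 0 in all libraries.

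In GENCODE M21 (mm10), exons of Wnt5a, Fzd5, Wnt11, Fzd6, Rspo3, Sfrp2, Axin2, Lef1, Notum, Wnt7b and Ctnnb1 overlap a gene on the opposite strand. Since the labels do not say that reads were assigned by strand, reads of these genes and of their antisense partners cannot be told apart. In this annotation the lower members Wnt5a (chr14:28504750-28527448, plus strand), Wnt16 (chr6:22288227-22298522, plus), Wnt2b (chr3:104945272-104961921, minus), Rspo1 (chr4:124986430-125009099, plus) and Dkk2 (chr3:132085292-132180304, plus) lie on 4 chromosomes. The higher members are Wnt7a (chr6:91363981-91411363, minus), Fzd5 (chr1:64730558-64737751, minus) and Fzd10 (chr5:128600844-128604093, plus).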

How the data were processed

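Poly(A) RNA from whole uteri of female mice (postnatal day 21) was profiled in 6 libraries, 3 per genotype, grouped by the sample titles. The submitters' processing notes name HISAT2 2.2.1, Cufflinks 2.2.1 and the mm10 build; annotation, gene filter and strand handling are not given in the sources used here. The deposited values are FPKM by the authors, a unit inferred from these tools and from the values, since the file headers do not name it. Read totals are unknown, so no counting intervals are given; relative depth was read from the most frequent ratio of values under 0.15 FPKM.

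Values were analysed as log2(FPKM + 1), which understates changes of low genes. Genes with at least 1 FPKM in at least 3 libraries (12640 of 20637) were compared between groups with limma 3.58.1 in R 4.3.3 (eBayes with trend; two-sided p, Benjamini-Hochberg over all tested genes, threshold 0.05), checked on simulated data. With 200 genes changed in the simulations, the fit recovered 11.3% of log2 changes of 0.5 and 64% of log2 changes of 1. Most changes of 0.5 were thus missed. Members and lists were chosen with earlier results of these data known. Every library's value is given for tested members whose groups do not overlap, the 3 most abundant of each role and the largest change of each role. Coordinates come from GENCODE M21 and upstream sequences from RefSeq (GRCm38.p6). Python 3.11.15 with pandas 2.3.3 was used for the summaries.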

Additional observations from a re-analysis of the deposited data

How the results depend on the processing

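The comparison was repeated under 13 other settings: quantile normalization, median centring, no low-value filter, a pseudocount of 0.1, the replicate number as a block, array quality weights, no trend, and leaving out each library. Array quality weights, which put most of the deleted group's weight on replicate 1 (3.74, against 0.224 and 0.451), gave 316 called genes and 3 called members, namely Wnt2b (-0.88; limma adjusted p 0.0386), Wnt16 (-0.81; 0.0386) and Wnt7a (0.76; 0.0474), while under the 13 settings the adjusted p of these members reached 1. Leaving out each library gave 0 to 12 called genes, the 12 without Nat10-deleted replicate 2, with 0 called members throughout and 352 to 1726 genes at an unadjusted p under 0.05. The other settings called none, with 624 to 886 genes at an unadjusted p under 0.05. With array quality weights there were 3730 such genes of 12640 and 11 such members of 42. The replicate block (same-numbered libraries were correlated at -0.341, -0.0287 and 0.1, so the numbers were not taken as pairs) also left 0 called genes, with 726 at an unadjusted p under 0.05 against 630 without it. Members above the controls without overlap numbered 5 of 47 with no filter (adding Wnt10a and Sfrp5; 5.72% of all genes) and 4 to 10 of 42 when a library was left out (8.95% to 17.4% of all tested genes), and those below then numbered 5 to 10 (6.08% to 14.6%). With no filter the median change was 0.017 for R-spondins (-0.203 with it) and -0.038 for inhibitors (-0.22 with it). When a library was left out, the median ran from -0.139 to 0.068 for receptors and from -0.317 to -0.005 for inhibitors. The 8 members that separated the groups cannot change sign when a library is left out, though their size can, and their limma adjusted p then ran from 0.153 to 1. Changes near 0 turned. When a library was left out, Wnt11 ran from -0.185 to 0.551 and Fzd6 from -0.021 to 0.296 (below 0 without Nat10-deleted replicate 3), Fzd2 from -0.139 to 0.068 (above 0 without Nat10-deleted replicate 2), Rspo3 from -0.068 to 0.186, Axin2 from -0.146 to 0.173 and Nkd1 from -0.125 to 0.084. Quantile normalization put Rspo3 at -0.033 and Axin2 at -0.031, and median centring put them at -0.011 and -0.024. The cause of these changes was not tested. The untested members were all at or below 0.656 FPKM.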
